A study of Sus scrofa with 8 samples.

Results

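HOX, CDX, MEIS and PBX genes encode homeodomain transcription factors that give cells their position along the body axis. Members were every gene of the count table whose pig Ensembl symbol is HOXA, HOXB, HOXC, HOXD, CDX, MEIS or PBX followed by a number. This rule took 41 of the 24358 genes: 8 HOXA, 9 HOXB, 9 HOXC, 8 HOXD, 2 CDX, 2 MEIS and 3 PBX genes.

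The study asked how interferon regulatory factor 1 (IRF-1), a transcription factor of the interferon response, affects pluripotency in pig induced pluripotent stem cells (piPSCs). Poly(A) RNA was sequenced from 2 libraries of IRF-1 overexpressing cells (replicates 1 and 3) and 2 libraries of control cells (replicates 6 and 8). The cells of both groups came from pig embryonic fibroblasts that carried doxycycline-inducible OCT4, SOX2, KLF4 and MYC (OSKM), and were kept with doxycycline, LIF and the inhibitor pair called 2i, from which they take the name DOX-hLIF-2i piPSCs. That culture is the one the study's text describes. The sample labels name the culture as the LCDMV system, a name that the study's text does not use, so the medium of the 4 libraries is not settled here. The overexpressing cells were transfected with the transposon PB-CAG-IRF1-Flag, in which the constitutive CAG promoter drives Flag-tagged IRF-1, and the controls with PB-CAG-Flag, and both were selected with puromycin. Feeder cells were removed before RNA extraction by letting them attach and taking the cells still in suspension. The genotype label reads overexpression of IRF-1 for all 4 libraries, so the division into groups rests on the sample numbers 1 and 3 against 6 and 8 as the study assigns them. The cells keep the exogenous OSKM factors and need doxycycline to grow. Which cell line each library came from, and whether the libraries were separate transfections or cultures, are not given in the sources used here, so p-values measure only the spread between these samples, which may be technical.

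The overexpressing libraries totalled 24923319 and 20858333 counts, the control libraries 15925429 and 17097669. A count of 1 therefore stood for 0.0401, 0.0479, 0.0628 and 0.0585 CPM (counts scaled by library total), in the order overexpressing 1, overexpressing 3, control 6 and control 8, which is the order of every set of 4 values given here. All other CPM values also carry the TMM factors of 0.997, 0.998, 0.982 and 1.02, except the filter cutoff and the ratios of summed counts, which use the library totals alone. Mitochondrial genes took 8.62%, 7.57%, 6.29% and 6.68% of the counts, so the overexpressing libraries were both deeper and higher in mitochondrial reads. A gene was taken as above the floor in a group with more than 3 counts in each of its libraries.

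IRF1 (chromosome 2, 134776124 to 134783819 on the assembly Sscrofa11.1) had 8206, 5485, 55 and 56 counts. Both overexpressing libraries lay far above both controls, so no library went against its assignment. On the log2 scale the fold change was 6.46 (SE 0.21; edgeR quasi-likelihood (QL) test, Benjamini-Hochberg (BH) adjusted over all genes tested, adjusted p = 3.65e-05). Reads of the transgene and of the endogenous gene cannot be told apart in these counts.

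Of 18 pluripotent stem cell markers, 10 had a row under their symbol and 6 were tested. LIN28A, an RNA-binding protein of pluripotent cells and the marker with the highest level per length, had 4071, 3875, 7905 and 6677 counts. The epithelial markers CDH1 and EPCAM were also well above the floor in all 4 libraries, with 631, 1539, 3753 and 4062 counts for CDH1 and 198, 187, 113 and 129 for EPCAM. NANOG stood at 8, 11, 5 and 9 counts, PRDM14 at 0 in all 4 libraries and DPPA5 at no more than 2. The cells thus carried part of the marker list, with the core factor NANOG close to the floor in both groups. ESRRB, CDH1 and LIN28A were called lower in the overexpressing cells by edgeR and no marker was called higher. None rose at an unadjusted p under 0.05 or by DESeq2 or limma-voom. Among all genes tested, edgeR called 10.6% lower and 8.61% higher. The markers summed to 305, 367, 886 and 743 CPM. The other 8 markers were not analysed here.

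HOX genes lie in 4 clusters, and in the embryo they are switched on in the order in which they sit along the chromosome, so that low-numbered genes mark anterior and high-numbered genes posterior levels of the trunk. CDX factors, themselves activated by WNT and FGF signals, act upstream of the central and posterior HOX genes. PBX and MEIS proteins are TALE homeodomain factors that bind DNA together with HOX proteins and sharpen their choice of sites. Undifferentiated pluripotent cells hold the clusters under Polycomb repression, whereas fibroblasts keep a HOX pattern that records their site of origin.

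Genes of the HOXA and HOXD clusters were higher in the IRF-1 overexpressing cells, and none of the 41 members passed the call for lower expression, while an unnamed row over CDX1 did. A gene was called when the adjusted p of edgeR was under 0.05 and the log2 fold change at least 1 in size. Of the 41 genes, 16 passed the filter on low counts and were tested, 6 of them were called higher and 10 were not called, against 8.61% called higher and 10.6% called lower among all 13250 genes tested. The genes called were HOXA3, HOXA7, HOXA9, HOXD3, HOXD8 and HOXD9. HOXA9, and HOXA5 among those not called, passed the filter through the overexpressing libraries only, so both could hardly have been called lower. Of the members that reached the filter cutoff of 0.527 CPM in all 4 libraries, 5 of 13 were called higher and 0 lower by edgeR, against 6.55% and 9.41% of 11933 genes, a count added after seeing the data. The counts of calls in the gene lists below are to be read against the same shares of all genes tested, 8.61% higher and 10.6% lower, and a listed gene that passed the filter through 1 group only could hardly have been called in the other direction. These shares do not apply to counts at an unadjusted p under 0.05, a looser rule. For that rule no share of all genes is given here, so those counts cannot be read as an excess. Against the 0 called lower by edgeR, 2 tested members were lower at an unadjusted p under 0.05, MEIS2 and PBX2, and DESeq2 and limma-voom each called 0 lower as well. In 8 of the 16, both overexpressing libraries lay above both controls, and in 3 both lay below, where the same held for 34.8% and 33.8% of all genes tested.

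The 34 HOX genes together had 10107, 7834, 3020 and 3019 counts, or 407, 377, 193 and 173 CPM. Nearly all of this came from HOXD, which held 95.1%, 96.0%, 94.3% and 96.0% of the HOX counts. HOXD8 alone held 59.2%, 65.9%, 64.5% and 65.3%. The share of HOXD among HOX reads was thus alike in the 4 libraries, while the summed HOX level was higher in both overexpressing libraries. In bulk RNA, fewer cells that express a gene and less RNA per cell cannot be told apart.

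**Figure D1:**
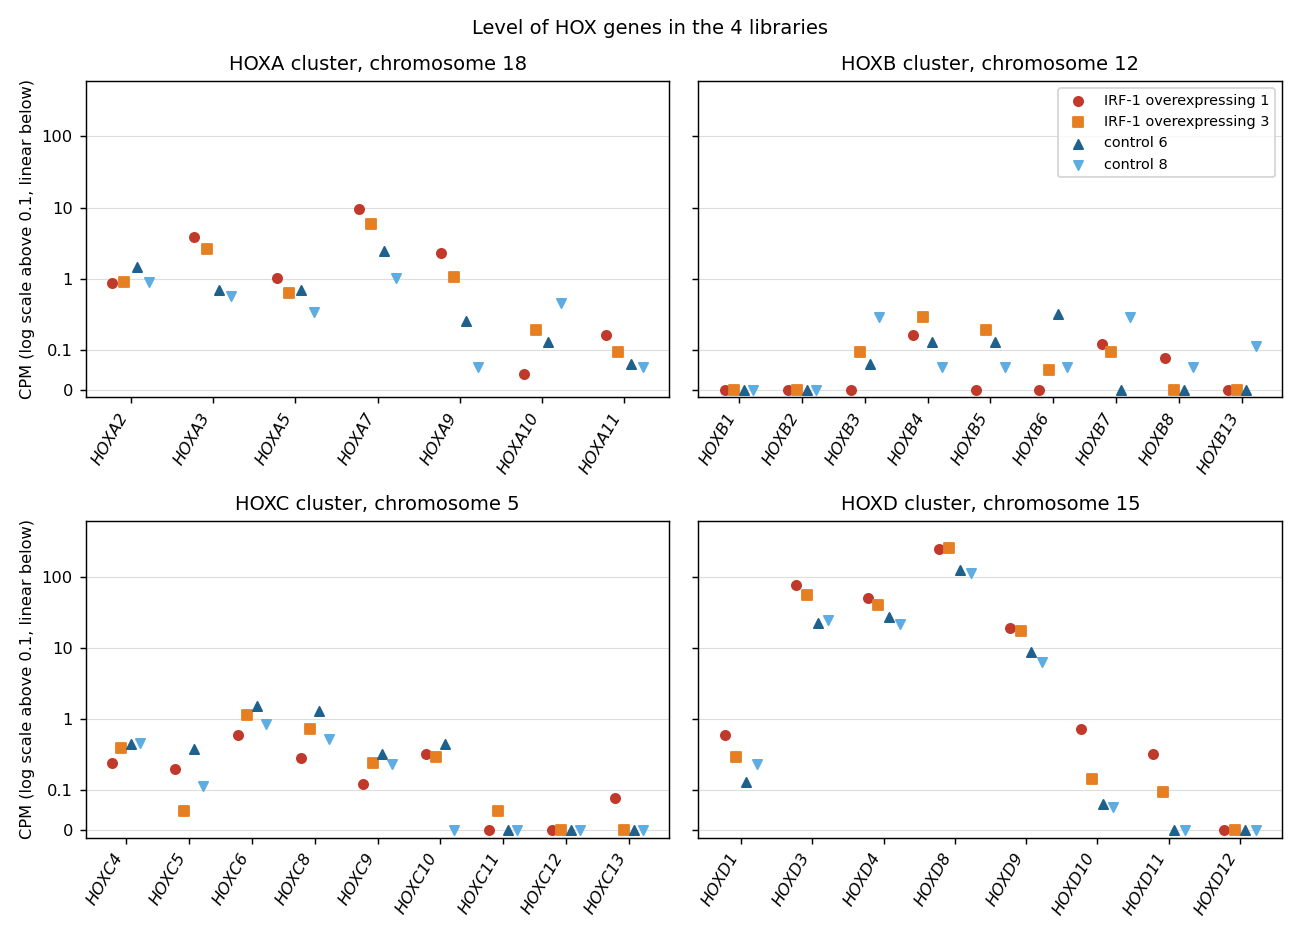
Level of HOX genes as CPM (vertical axis, logarithmic above 0.1 and linear below) in the 2 IRF-1 overexpressing and 2 control libraries, by cluster and paralog number. HOXD3, HOXD4, HOXD8 and HOXD9 stand above all other HOX genes, and the HOXB genes stay at or near 0 in all 4 libraries.

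The HOXD cluster runs on chromosome 15 from HOXD12 at 81901032 to the end of HOXD1 at 81990807. HOXD8 (81930961 to 81935529), a gene of the central trunk, had 5985, 5164, 1947 and 1970 counts. The 2 libraries of each group were close together and the groups did not overlap. It stood at 245 ± 5.20 CPM with IRF-1 and at 119 ± 8.47 CPM without, each the mean ± SD of 2 libraries as in all later pairs of levels. This was a log2 fold change of 1.04 (SE 0.137; edgeR QL test, BH-adjusted p = 0.00157), just past the fold minimum, and without control replicate 8 it was 0.98 and no longer called.

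HOXD3 (81953834 to 81972718), which acts at neck and upper trunk levels, had 1870, 1154, 346 and 435 counts. Overexpressing replicate 1 was the highest, and both overexpressing libraries lay well above both controls. The levels were 65.4 ± 14.0 and 23.5 ± 1.93 CPM, a log2 fold change of 1.48 (SE 0.192; edgeR QL test, BH-adjusted p = 0.00156).

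HOXD4 (81952859 to 81954171), a direct retinoic acid target in the hindbrain, had 1247, 838, 417 and 379 counts. The groups did not overlap. Its log2 fold change of 0.91 (SE 0.191; edgeR QL test, BH-adjusted p = 0.0107) passed the adjusted p but not the fold minimum, and reached 1.06 without overexpressing replicate 3 or without control replicate 6. It was 0.77 without control replicate 8, and 0.75 without overexpressing replicate 1, where the adjusted p was no longer passed (edgeR QL test, BH-adjusted p = 0.086). HOXD3 and HOXD4 share 338 exon bases on the same strand, of 774 in HOXD4 and 2731 in HOXD3, so reads could be divided between them in either direction and the values of both are uncertain.

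HOXD9 (81924160 to 81925550), a gene of the lower trunk, had 464, 355, 134 and 110 counts. Both overexpressing libraries lay above both controls. The levels were 17.9 ± 1.14 and 7.43 ± 1.62 CPM, with a log2 fold change of 1.27 (SE 0.246; edgeR QL test, BH-adjusted p = 0.00767).

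Levels of different genes were compared per length of exon. In the overexpressing cells HOXD8 stood at 62.9 ± 1.34 CPM per kb, HOXD4 at 58.4 ± 9.05, HOXD3 at 23.9 ± 5.12 and HOXD9 at 18.5 ± 1.18. In the controls the levels were 30.5 ± 2.18, 31.2 ± 4.59, 8.61 ± 0.706 and 7.69 ± 1.67 CPM per kb in the same order of genes. HOXD8 and HOXD4 did not differ beyond the spread of 2 libraries in either group, nor did HOXD3 and HOXD9 in the controls, while the upper pair lay above the lower pair in all 4 libraries. The 338 exon bases shared by HOXD3 and HOXD4 stand in the length of both, and how reads on them were counted is not known. Comparisons per length that hold either gene are therefore uncertain.

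Outside this central block the HOXD genes had few counts. HOXD1, the most anterior gene, had 15, 6, 2 and 4 counts, a ratio of summed counts per library total of 2.52 with a 95% counting interval of 0.986 to 7.64. HOXD10, which patterns the hindlimb and lumbar cord, had 18, 3, 1 and 1 counts, a ratio of 7.57 (1.85 to 66.6). HOXD11 had 8, 2, 0 and 0 counts and HOXD12 had 0 in all 4 libraries. The intervals cover counting error only. HOXD10 and HOXD11 counts came mainly from overexpressing replicate 1, and none of these 4 genes was tested by edgeR. DESeq2 tested HOXD1 and HOXD10 and called neither.

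An unnamed row of the table at 81894121 to 81898944, with 3048 of its 4027 exon bases inside the RefSeq model of HOXD13 on the same assembly, had 61, 15, 4 and 3 counts. The row passed the filter through the overexpressing libraries only. It was high in overexpressing replicate 1 and lower, though still above both controls, in replicate 3. The fitted log2 fold change was 2.88 (SE 0.79; edgeR QL test, BH-adjusted p = 0.0293), and the ratio of summed counts was 7.83 with a counting interval of 3.62 to 20.1. It was no longer called by limma-voom (BH-adjusted p = 0.0582), nor without overexpressing replicate 1, where the log2 fold change was 1.75, nor without control replicate 6 or 8 (3.18 and 2.63). This row was not counted among the members, since the name table gives it no symbol.

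**Figure D2:**
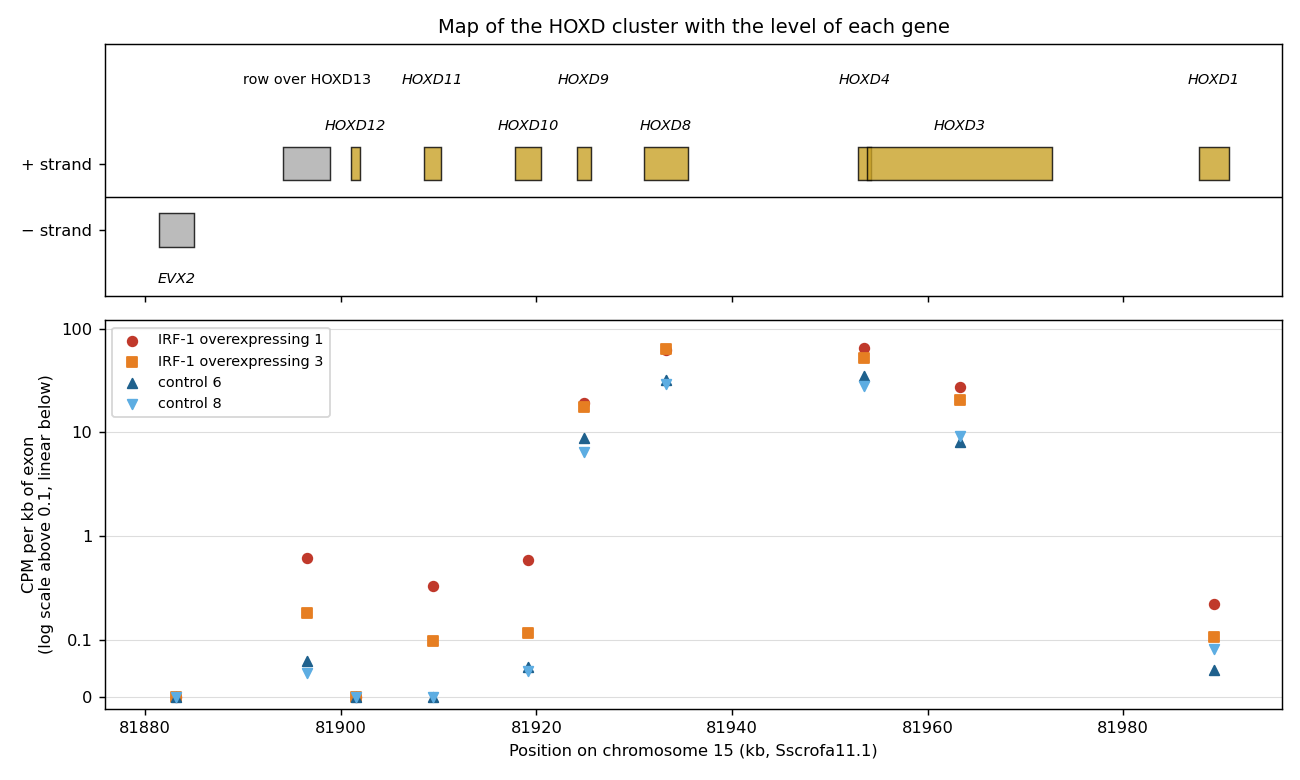
Map of the HOXD cluster on chromosome 15 to scale (upper panel, gene spans by strand, members in yellow, other rows in grey) with the level of each row as CPM per kb of exon (lower panel, logarithmic above 0.1 and linear below) in each of the 4 libraries. HOXD9, HOXD8, HOXD4 and HOXD3 form a block of high levels, and EVX2 and HOXD12 are at 0.

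The HOXA cluster, on chromosome 18, had far lower counts, and 3 of its 5 tested genes were called higher. HOXA7 (45417132 to 45421017), a gene of the thoracic trunk and the most abundant HOXA gene per length in the overexpressing cells, had 236, 121, 38 and 18 counts. Each overexpressing library lay above both controls, although the libraries within a group differed too, at 7.66 ± 2.60 and 1.73 ± 0.992 CPM. Its log2 fold change was 2.16 (SE 0.477; edgeR QL test, BH-adjusted p = 0.013).

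HOXA3 (45454213 to 45469740), which is needed for the thymus and parathyroid, had 96, 55, 11 and 10 counts. The controls were close together and both overexpressing libraries stood above them, a log2 fold change of 2.35 (SE 0.457; edgeR QL test, BH-adjusted p = 0.00777).

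HOXA9 (45408457 to 45411913), best known from blood progenitors and leukaemia, had 58, 22, 4 and 1 counts. It passed the count filter through the overexpressing libraries, with replicate 1 the highest. A log2 fold change of 3.44 was fitted (SE 0.778, edgeR QL test, BH-adjusted p = 0.0142), next to a ratio of summed counts of 11.5 with a counting interval of 4.74 to 36.5. Without control replicate 6 the log2 fold change was 4.76, and without control replicate 8 it was 2.72.

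HOXA2, the gene that patterns the branchial arches, had 22, 19, 23 and 16 counts and a log2 fold change of -0.40 (SE 0.482), with 0.913 CPM in overexpressing replicate 3 next to 0.915 in control 8. HOXA5, which acts in the lung and neck, had 25, 13, 11 and 6 counts in overlapping groups and a log2 fold change of 0.66 (SE 0.592). Without each library these ranged from -0.70 to -0.03 for HOXA2 and from 0.23 to 1.24 for HOXA5. The HOXA5 row also spans the RefSeq model of HOXA6, so its counts may belong to both. Neither gene was called. HOXA10 (1, 4, 2 and 8 counts) and HOXA11 (4, 2, 1 and 1) were not tested by edgeR, and DESeq2 tested HOXA10 and did not call it. Rows over the RefSeq models of HOXA4 and HOXA13 had 7, 6, 3 and 1 counts and 0 counts in all 4 libraries. HOXA9 and HOXA11 share 23 and 44 exon bases with an unnamed row on the opposite strand, and the strand setting of the counting is not given in the sources used here.

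All 6 calls of HOXA and HOXD genes were also made by DESeq2 and limma-voom. Tested against a log2 fold change of 1 (glmTreat) only HOXA3 kept its call, and without overexpressing replicate 1 only HOXD3 and HOXD8 did, with log2 fold changes of 2.06 for HOXA3, 1.77 for HOXA7, 2.75 for HOXA9 and 1.21 for HOXD9 and BH-adjusted p of 0.0754, 0.0769, 0.12 and 0.0501 by the edgeR QL test.

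The HOXB cluster, on chromosome 12 from 24784953 to 24950787, was close to 0 counts in both groups. Its 9 genes together had 9, 15, 10 and 16 counts, and none was tested by edgeR. DESeq2 tested HOXB4 and did not call it. HOXB1 and HOXB2 were at 0 in all 4 libraries. HOXB4 was the only HOXB gene above the floor in both overexpressing libraries, with 4, 6, 2 and 1 counts, a ratio of 2.40 with a counting interval of 0.619 to 13.6. HOXB6 had 0, 1, 5 and 1 counts, a ratio of 0.12 (0.00261 to 0.991), with most of its counts in control 6, and HOXB3 had 0, 2, 1 and 5, a ratio of 0.24 (0.0237 to 1.34). HOXB5 and HOXB7 reached at most 4 and 5 counts, and HOXB8 and HOXB13 at most 2.

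The HOXC cluster, on chromosome 5 from 19151169 to 19270411, was low. Its 9 genes together had 46, 60, 69 and 38 counts. HOXC6 had 15, 24, 24 and 15 counts and HOXC8 had 7, 15, 20 and 9, with overlapping groups for both. Their log2 fold changes were -0.45 (SE 0.552) and -0.84 (SE 0.688), and without control replicate 6 they were 0.02 and -0.06. That of HOXC8 was -1.63 without overexpressing replicate 3. Of these 2 tested genes 0 were called by edgeR, 0 passed an unadjusted p under 0.05, and DESeq2 and limma-voom called 0. HOXC4 (6, 8, 7 and 8 counts), HOXC5 (5, 1, 6 and 2), HOXC9 (3, 5, 5 and 4) and HOXC10 (8, 6, 7 and 0) were near the floor, HOXC11 and HOXC13 had at most 1 and 2 counts, and HOXC12 had 0 in all 4 libraries.

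Read by paralog group across the clusters, most counts lay in a few groups. Group 8 (HOXB8, HOXC8 and HOXD8) summed to 241, 249, 126 and 113 CPM, group 3 to 79.1, 58.2, 22.9 and 25.7, group 4 to 50.6, 41.0, 27.3 and 22.2, and group 9 to 21.1, 18.4, 9.15 and 6.57. Group 7 followed with 9.62, 5.91, 2.43 and 1.31 CPM. In these 5 groups both overexpressing libraries lay above both controls. Most of each sum came from HOXD8, HOXD3, HOXD4, HOXD9 or HOXA7, whose values are given above, so the order of the sums is no separate result. Groups 2, 5, 6, 10, 11, 12 and 13 stayed under 2 CPM in all 4 libraries.

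Neither CDX2 nor CDX4 was above the floor in any library. CDX2 (chromosome 11), a regulator of trophectoderm and gut as well as of posterior HOX genes, had 0 counts in all 4 libraries, and CDX4 (chromosome X) had 2 counts, both in control 8. An unnamed row over the RefSeq model of CDX1 on chromosome 2 had 6, 2, 13 and 20 counts, lower in both overexpressing libraries and above the floor in both controls, through which it passed the filter, with a log2 fold change of -2.47 (edgeR QL test, BH-adjusted p = 0.0248). This call was lost by DESeq2 (BH-adjusted p = 0.113) and, in the edgeR QL test, with any library left out (BH-adjusted p from 0.0514 to 0.183).

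Neither MEIS gene was called, and their fold changes had opposite signs. MEIS1 (chromosome 3), a cofactor of HOXA9 and its neighbours, had 475, 394, 145 and 259 counts. Both overexpressing libraries lay above both controls, but the controls differed from each other by more than the 2 overexpressing libraries did. The fitted log2 fold change was 0.66 (SE 0.26; edgeR QL test, BH-adjusted p = 0.0981), and without control replicate 8 it was 1.04 (edgeR QL test, BH-adjusted p = 0.0121) and called higher. Without control replicate 6 it was 0.36 (edgeR QL test, BH-adjusted p = 0.309).

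MEIS2 (chromosome 1), its close paralog, had 1031, 1037, 1285 and 1342 counts. In CPM both overexpressing libraries lay below both controls, at 45.7 ± 5.91 against 79.5 ± 3.90. Its log2 fold change of -0.80 (SE 0.153; edgeR QL test, BH-adjusted p = 0.00724) passed the adjusted p and fell short of the fold minimum, and without overexpressing replicate 1 it was -0.66 and did not pass the adjusted p (edgeR QL test, BH-adjusted p = 0.101). Per length MEIS2 stood at 14.5 ± 1.88 and 25.3 ± 1.24 CPM per kb and MEIS1 at 3.35 ± 0.0221 and 2.12 ± 0.687, so MEIS2 was the higher of the pair in all 4 libraries. An unnamed row over the RefSeq model of MEIS3 had 606, 742, 1174 and 781 counts and was not called, with a fold of 0.501 that fell just short of the minimum. Without overexpressing replicate 3 or control replicate 8 its log2 fold change was -1.29 and -1.32, and it was called lower.

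Of the PBX genes, the partners of most HOX proteins, PBX2 (chromosome 7) was the highest per length and had 1725, 1831, 2283 and 1845 counts. In CPM both overexpressing libraries lay below both controls, at 78.7 ± 13.1 against 126 ± 28.7. Its log2 fold change was -0.68 (SE 0.199; edgeR QL test, BH-adjusted p = 0.038), short of the fold minimum. The adjusted p was passed only without control replicate 8 (edgeR QL test, BH-adjusted p = 0.00234) and not without any other library, with BH-adjusted p from 0.0535 to 0.276. PBX3 (chromosome 1) had 687, 642, 409 and 526 counts and PBX4 (chromosome 2) had 156, 153, 115 and 118. Their groups overlapped in CPM, with log2 fold changes of 0.06 (SE 0.174) and -0.05 (SE 0.273) whose sign turned without overexpressing replicate 3 or control replicate 6 for PBX3 (-0.02 and -0.04) and without overexpressing replicate 1 or control replicate 6 for PBX4 (0.07 and 0.01).

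**Figure D3:**
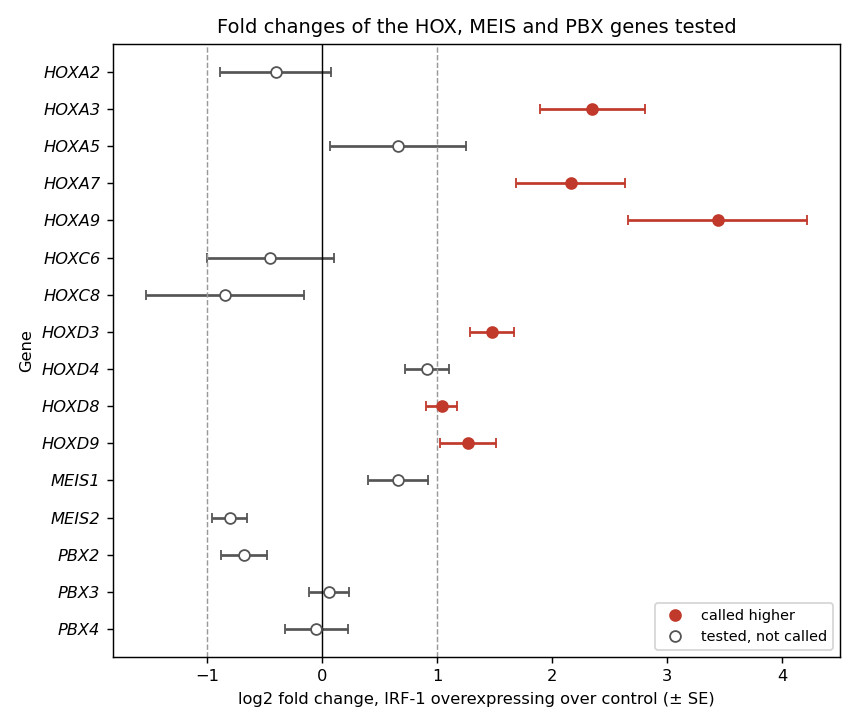
Fitted log2 fold change of IRF-1 overexpressing over control cells (horizontal axis, bars ± SE) for the 16 genes tested, with filled red points for genes called higher and dashed lines at a log2 fold change of 1 in either direction. The 6 called genes lie in HOXA and HOXD, between 1.04 and 3.44, and the MEIS and PBX genes lie between -0.80 and 0.66.

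The MEIS and PBX genes together gave 164, 195, 271 and 234 CPM, lower in both overexpressing libraries than in either control. Counted per library, 24, 23, 22 and 22 of the 41 genes were above 3 counts. In both libraries of a group, 20 genes were above the floor in the overexpressing cells and 18 in the controls, and 10 genes were not above it in any library. After scaling counts down to the smallest library total these were 19 and 18.

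Of 11 further TALE genes, 7 were tested and edgeR called 0, with 1 higher and 2 lower at an unadjusted p under 0.05 and 0 calls by DESeq2 or limma-voom. Their median log2 fold change was 0.10, beside 0.00 for all genes tested. PKNOX2 lay at -0.99 and PKNOX1 at 0.85, both chosen after their values were seen.

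Of 10 ParaHox and HOX-linked homeobox genes, 9 had a row and 3 were tested, with a median of 0.86. GSX2, a ParaHox gene of the ventral forebrain, passed the filter through the overexpressing libraries only and was called higher with 210, 75, 8 and 0 counts. Its ratio of summed counts was 25.7 with a counting interval of 12.9 to 60.1. The log2 fold change was 4.59 (SE 0.905, edgeR QL test, BH-adjusted p = 0.00818), and DESeq2 did not call it (4.58, BH-adjusted p = 0.0945). All control counts of GSX2 were in control replicate 6, without which no fold can be given. Without control replicate 8 the log2 fold change was 3.56. No gene of the list was called lower by edgeR, DESeq2 or limma-voom, nor lower at an unadjusted p under 0.05. GBX2, which marks the midbrain and hindbrain border, had 25, 10, 0 and 0 counts and was not tested by edgeR, though called higher by DESeq2, at least 4.09-fold higher when set against a floor of 3 counts per control library. EVX1 and EVX2, which flank the HOXA and HOXD clusters, were at 0 in all 4 libraries.

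Polycomb genes hold HOX clusters silent. Of 28 tested, 1 was called higher, 3 lower and 24 not called, with a median of -0.10, where 8.61% and 10.6% of all genes tested were called higher and lower. At an unadjusted p under 0.05, a rule with no share of all genes given here, 8 were higher and 5 lower. CBX2, a subunit of the canonical complex that reads H3K27 methylation, rose from 459 and 691 counts in the controls to 2082 and 1957 (log2 fold change 1.37, SE 0.18; edgeR QL test, BH-adjusted p = 0.00161). SCMH1 fell, with 24, 23, 143 and 80 counts and a log2 fold change of -2.72, as did the PRC2 accessory genes PHF19 (-1.20) and PHF1 (-1.12, named after its value was seen). The PHF19 call was lost without overexpressing replicate 1, overexpressing replicate 3 or control replicate 6. Its log2 fold changes there were -1.21, -1.17 and -0.96, in the same order. The catalytic genes EZH2, with 1601, 1858, 1292 and 1930 counts, and EZH1, with 549, 404, 344 and 402, were not called. Of 19 Trithorax and H3K27 demethylase genes, edgeR called 0, with 2 higher and 2 lower at an unadjusted p under 0.05 and 0 calls by DESeq2 or limma-voom, and the median was 0.14.

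Retinoic acid is a main inducer of anterior HOX genes. Of 14 tested genes of its synthesis, degradation and receptors, 1 was called higher and 6 lower, and their median lay at the size of the fold minimum, on the lower side. RXRG, the gene called higher, passed the filter through the overexpressing libraries only, and CYP26A1, called lower, through the controls only. CRABP2, which carries retinoic acid to the nucleus, had 203, 407, 3324 and 3035 counts, lower by far in both overexpressing libraries (log2 fold change -3.81, SE 0.378). CYP26A1, the enzyme that degrades retinoic acid, had 5, 5, 51 and 24 counts (-3.36, SE 0.64), a call lost without overexpressing replicate 1 (-3.21). The receptor gene RXRG moved the other way, with 5190, 2081, 7 and 8 counts and a ratio of summed counts of 350 (212 to 625).

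Of 21 tested genes of the posterior axis and its progenitors, 2 were called higher and 6 lower, with a median of -0.45. DLL1 passed the filter through the overexpressing libraries only, and WNT3 and SP8, both called lower, through the controls only. NR6A1, a nuclear receptor that sets the span of trunk HOX expression, had 695, 951, 2250 and 2786 counts (log2 fold change -2.04, SE 0.233). WNT3 had 11, 12, 47 and 37 (-2.32, SE 0.475) and was not called without overexpressing replicate 1 (-2.12). LEF1, a nuclear mediator of WNT signals, had 869, 534, 194 and 190 counts (1.38, SE 0.223), and the Notch ligand DLL1 had 141, 93, 1 and 9, a ratio of 16.9 (9.02 to 35.7). TBXT, the defining marker of axial progenitors, had 1 count in all, and MSGN1 had 0.

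Partners of posterior HOX genes in limb and genital mesenchyme gave 2 genes called higher and 4 lower of 10 tested, with a median of -1.07, and PRRX2 and GLI1, both called lower, passed the filter through the controls only. EPHA3 had 609, 1160, 3402 and 3837 counts (log2 fold change -2.45, SE 0.341) and PRRX2 had 13, 23, 88 and 40 (-2.29, SE 0.592), which lost its call without overexpressing replicate 1 or control replicate 6. SHOX2, a homeobox gene of the proximal limb, had 362, 270, 42 and 17 counts (2.92, SE 0.441), and PRRX1 had 1399, 741, 245 and 250 (1.62, SE 0.243). SHH, TBX4 and HAND1 were at 0 in all 4 libraries.

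Of 5 hindbrain segment genes tested, 2 were called higher and 0 lower by edgeR, with 1 lower at an unadjusted p under 0.05 and 0 lower by DESeq2 or limma-voom, and the median was -0.22. Both called genes passed the filter through the overexpressing libraries only, so they could hardly have been called lower. NEUROG1, a neurogenic factor, had 117, 127, 1 and 1 counts, a ratio of 88.0 with a counting interval of 24.1 to 731, and VGLL2, named after its values were seen, had 25, 20, 2 and 0. EGR2, which marks hindbrain segments and was also named after its values were seen, had 289 counts in control 6 and 14, 19 and 4 in the other libraries.

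Markers of other cell types differed between the groups as well. Of 16 neural markers 12 were tested, 5 called higher and 1 lower, with NEUROG2 through the filter by the overexpressing libraries only. Their median was 0.89 on the log2 scale, also with NEUROG2 at its bound. They summed to 834, 424, 322 and 300 CPM, highest in overexpressing replicate 1, as were the row over HOXD13 and every called member but HOXD8. For any gene 1 of the 2 overexpressing libraries has to be the higher, and for HOXD9 they stood close, at 18.7 and 17.1 CPM. STMN2, the highest per length in the controls, had 8124, 3223, 1137 and 1334 counts, and TUBB3, neuronal tubulin, had 8726, 2443, 97 and 185. NEUROG2 had 85, 49, 0 and 0 counts, at least 15.9-fold higher against a floor of 3 counts per control library. ISL1 and ELAVL3, named after their values were seen, were the other genes called higher, and the progenitor marker NES was called lower. The defining neural gene PAX6 had 12, 3, 11 and 17 counts. The part of these genes in the HOX difference was not tested.

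Fibroblast markers, of interest because the cells were made from fibroblasts, gave 2 genes called higher and 7 lower of 15 tested in a list of 25, with a median of -1.11. DCN and COL6A1, both called lower, passed the filter through the controls only. They summed to 1979, 1746, 2420 and 2370 CPM, and VIM was the highest per length. PDGFRB had 28, 62, 1966 and 978 counts (log2 fold change -5.49, SE 0.531) and ACTA2 had 38, 68, 1175 and 531 (-4.47, SE 0.518). COL1A2 and PRRX1 were called higher. COL1A2 had 3458, 1690, 1006 and 699 counts (1.08, SE 0.298), a call lost without overexpressing replicate 1 or control replicate 8 (0.65 and 0.78). LUM, COL5A1 and COL6A3 were not above 3 counts in any library, and DCN had 3, 1, 19 and 19. The part of this list in the HOX difference was not tested.

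Of 9 trophoblast markers tested in a list of 15, 2 were called higher and 5 lower, DAB2 among them through the filter by the controls only, with a median of -2.68 and sums of 362, 1201, 15694 and 9631 CPM. The keratin genes KRT8, the highest per length, and KRT18 made up most of these sums, with 6213, 21095, 187722 and 130983 counts for KRT8 and 343, 1843, 55405 and 35599 for KRT18. TFAP2A rose (769, 890, 45 and 47 counts), as did PAG1 (1065, 577, 58 and 96), a symbol also used for a membrane adaptor. The PAG1 row may therefore not be a trophoblast marker, though it is 1 of the 2 called higher. CDX2 and HAND1 were at 0 in all 4 libraries, and KRT7 and TP63 were not above 3 counts. Of 4 mesoderm and endoderm markers tested in a list of 17, FOXC2 was called lower (102, 259, 516 and 608 counts) and edgeR called 0 higher, with 1 higher at an unadjusted p under 0.05 and 0 by DESeq2 or limma-voom. This list had a median of -0.55, sums of 69.6, 93.1, 97.7 and 92.6 CPM and FOXC2 as the highest per length in the controls and GATA6 in the overexpressing cells. MIXL1, CER1, AFP, PAX1 and FOXA2 were at 0 in all 4 libraries, and EOMES and GSC were not above 3 counts. The part of these lists was not tested.

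Of 77 rows within 500 kb before and after the 4 clusters, 30 were tested, 1 called higher and 3 lower, against 8.61% and 10.6% of all genes tested. At an unadjusted p under 0.05, a rule with no share of all genes given here, 2 were higher and 9 lower. The median log2 fold change was -0.12. The row called higher is the unnamed row over HOXD13, and those called lower were COPZ2 beside HOXB and ZNF385A and ITGA5 beside HOXC, named after their values were seen. The nearest tested genes with a symbol beside HOXD, past the row over HOXD13, were LNPK, 94864 bases before it, with 821, 611, 516 and 569 counts (log2 fold change -0.07, SE 0.162), and MTX2, 70578 bases after it, with 936, 802, 951 and 864 (-0.53, SE 0.162). Beside HOXA, HIBADH had a log2 fold change of 0.29 (SE 0.147) and SKAP2, with 138, 100, 52 and 59 counts, 0.63 (SE 0.317). The values were 0.04 for SNX11 and -0.70 for TTLL6 beside HOXB, and -0.62 for CALCOCO1 and 0.02 for SMUG1 beside HOXC, and none of these 8 named genes was called.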

How the data were processed

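Per the labels and methods, the authors had RNA sequenced by a company, trimmed reads with trim_galore, aligned them with HISAT2 to the assembly Sscrofa11.1 and counted them per gene with featureCounts 1.6.4, while htseq-count and stringtie are named too. Annotation release, strand and multimapping settings are not given in the sources used here. The deposited values are whole-number counts, and other deposited columns give exon length and position. Symbols came from an Ensembl name table, which names 14692 rows. Unnamed rows were placed by RefSeq models of the same assembly, whose strand was not used.

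Counts were tested here with edgeR 4.0.16 (QL test, with TMM, filterByExpr by group, glmQLFit and glmQLFTest) in R 4.3.3, with BH adjustment over 13250 genes. The pipeline was tested on simulated data, in which the changed genes had a log2 fold change of 2 in size. Of 200 changed genes among 13088, 199 were recovered, and 8 unchanged genes were called. Recovery of smaller changes, such as those near the fold minimum, was not tested. An exact permutation test of 2 against 2 libraries cannot go below a two-sided p of 0.333, so none was used. Replicates differed by more than sampling noise, with 17.9 (overexpressing) and 31.3 (control) as chi-square over degrees of freedom. Alternatives were DESeq2 1.42.0, limma 3.58.1 (voom), glmTreat, other scalings, filters and floors, and leaving out each library. Count ratios use library totals, with exact 95% intervals.

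The members and lists were chosen with earlier results of these data known. Named were IRF1, the members, except that some items are not reported here, the 2 highest and 2 lowest called genes of each list whose mean reached 1 CPM, the nearest tested neighbours with a symbol of each cluster, and for cell types the highest gene per length and genes at the floor. Other genes were named after their values were seen. Promoter and protein motifs and the ChIP-Seq libraries were not analysed here.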

Additional observations from a re-analysis of the deposited data

How the results depend on the processing

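All 6 calls were kept under RLE, upper quartile and library-total scaling, under both other filters, without mitochondrial and the 10 highest genes, and by DESeq2 and limma-voom. With glmTreat 1 gene was called higher. Leaving out each library gave 2 to 7 called higher, 2 without overexpressing replicate 1, and 0 called lower; a group then holds 1 library, assumed to vary like the other group. By adjusted p alone 7 members were higher and 2 lower, MEIS2 and PBX2, of which MEIS2 no longer passed without overexpressing replicate 1, and PBX2 not without overexpressing replicate 1 or 3 or control replicate 6. With unnamed rows over RefSeq models added, an alternative chosen after seeing the data, 7 were called higher and 1 lower. Among members at the filter cutoff in all libraries, also chosen after seeing the data, 5 were called higher. IRF1 stayed between 6.31 and 6.62 without each library. HOXA7 then ranged from 1.66 to 2.89 and HOXA9 from 2.72 to 4.76 in log2 fold change. Without each library the log2 fold change ranged from -0.97 to 0.02 for HOXC6, from -0.70 to -0.03 for HOXA2, from 0.23 to 1.24 for HOXA5, from -1.63 to -0.06 for HOXC8, from 0.75 to 1.06 for HOXD4, from 0.36 to 1.04 for MEIS1, from -0.93 to -0.66 for MEIS2, from -0.88 to -0.42 for PBX2, from -0.04 to 0.17 for PBX3 (-0.02 without overexpressing replicate 3) and from -0.16 to 0.07 for PBX4 (0.01 without control replicate 6), so HOXC6, PBX3 and PBX4 changed sign, and the cause was not tested. With a floor of 0 counts, 28 members were above it in both controls and 28 in both overexpressing libraries, so the difference of 20 against 18 was not seen at this floor; with a floor of 10 counts these were 12 and 15. Leaving out 1 library of the group, 23 to 24 members were above the floor in the overexpressing library and 22 in the control library. Members dropped by a filter have no value under it. The promoter motif alternative was not run, since no promoter sequences were used here. No paired analysis was possible because the groups share no replicate number. Counts under about 10 limit what can be said of HOXB, HOXC and CDX genes.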
